A study of Mus musculus with 4 samples.

Results

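Imprinted genes, which mammals express from only the maternal or only the paternal chromosome, were followed in mouse embryonic stem cells that lack Myh9, the heavy chain gene of non-muscle myosin IIA. A set of 42 established imprinted genes was matched by name to the deposited expression table of 50600 genes, and every name was found. The study holds 4 RNA-seq libraries of the OG2ES line, a mouse embryonic stem cell line labelled as coming from the inner cell mass: 2 from wild-type (WT) cells and 2 from Myh9 KO cells. The medium of both genotypes was mouse ES cell medium plus 2i, an inhibitor pair that keeps such cells in the naive state, with no further treatment. The labels do not say that the libraries of a genotype came from separate cultures, so a p-value measures only how far these libraries lay apart, which may be technical. They also name a single KO group, so what is particular to that clone and what the loss of Myh9 brings cannot be told apart. The deposited values are whole numbers that sum to 992098 to 992317 in each library, and neither their unit nor the read depth is given in the sources used here. They are quoted as values, and levels are compared between libraries, not between genes.

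Imprinting is set in the germ line, where DNA methylation is placed on control regions of either the egg or the sperm genome, and it is kept after fertilization by factors such as the zinc finger protein ZFP57 and its partner TRIM28. A single control region can govern several genes, so imprinted genes lie in clusters in which some are expressed from the maternal and others from the paternal allele. Many act in opposing ways on growth of the fetus and placenta, and their methylation is known to be unstable in cultured stem cells, also in 2i medium. The table gives 1 value per gene, so it does not show which allele was expressed. The allele named below is the one known from mouse tissues. For some members, such as Ube3a, Copg2, Gnas, Blcap, Ddc, Cd81, Tssc4 and Nap1l4, expression from 1 allele is restricted to certain tissues or is partial.

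The promoters of 5 members show how differently these genes are marked, and are given because the values of these members separated the genotypes: Mest, Snrpn and Phlda2 were higher in Myh9 KO and Grb10 and Plagl1 lower. Each line is a RefSeq promoter window on GRCm38.p6 of 300 bases, from 250 before to 50 after an annotated start, on the strand of the gene and 5′ to 3′. Capitals mark the hexamer TGCCGC, the core of the ZFP57 motif, read on either strand (GCGGCA on the other); the search counted overlapping matches. The windows are chr6:30737800-30738099 on the plus strand for Mest, chr7:60005150-60005449 on the minus strand for Snrpn, chr10:13090582-13090881 on the plus strand for Plagl1, chr11:12037371-12037670 on the minus strand for Grb10 and chr7:143502475-143502774 on the minus strand for Phlda2.
Mest: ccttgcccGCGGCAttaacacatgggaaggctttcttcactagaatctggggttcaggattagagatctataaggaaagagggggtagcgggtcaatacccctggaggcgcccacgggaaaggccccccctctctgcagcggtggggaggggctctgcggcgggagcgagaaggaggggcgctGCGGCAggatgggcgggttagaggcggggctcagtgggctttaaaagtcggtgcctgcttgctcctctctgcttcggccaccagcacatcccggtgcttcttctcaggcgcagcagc
Snrpn: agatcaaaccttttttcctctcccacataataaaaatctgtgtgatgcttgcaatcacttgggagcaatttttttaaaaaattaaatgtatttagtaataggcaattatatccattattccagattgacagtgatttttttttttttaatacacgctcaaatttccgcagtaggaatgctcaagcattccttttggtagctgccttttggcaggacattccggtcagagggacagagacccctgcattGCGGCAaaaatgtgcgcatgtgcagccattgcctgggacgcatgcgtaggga
Plagl1: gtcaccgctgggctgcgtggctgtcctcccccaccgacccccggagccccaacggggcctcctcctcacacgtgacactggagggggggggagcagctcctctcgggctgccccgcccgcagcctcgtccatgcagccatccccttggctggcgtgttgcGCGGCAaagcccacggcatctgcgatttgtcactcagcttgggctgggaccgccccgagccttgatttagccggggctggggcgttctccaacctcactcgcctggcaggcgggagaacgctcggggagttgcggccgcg
Grb10: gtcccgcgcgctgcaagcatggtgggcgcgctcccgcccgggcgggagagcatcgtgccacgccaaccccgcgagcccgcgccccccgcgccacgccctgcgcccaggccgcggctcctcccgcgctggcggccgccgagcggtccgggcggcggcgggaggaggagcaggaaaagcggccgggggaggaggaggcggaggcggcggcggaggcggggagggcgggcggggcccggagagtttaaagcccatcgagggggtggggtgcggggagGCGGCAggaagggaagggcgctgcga
Phlda2: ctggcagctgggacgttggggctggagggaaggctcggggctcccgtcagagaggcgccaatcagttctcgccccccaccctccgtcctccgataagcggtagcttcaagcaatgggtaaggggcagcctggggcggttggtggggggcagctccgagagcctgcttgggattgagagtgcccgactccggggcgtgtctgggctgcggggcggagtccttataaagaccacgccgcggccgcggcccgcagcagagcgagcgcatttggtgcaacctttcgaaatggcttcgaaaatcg

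The Mest window held 2 matches and 17 CpG dinucleotides, the Plagl1 window 1 match and 26 CpG, and the Snrpn window 1 match and 7 CpG. All 3 lie at genes of the paternal allele whose promoters are known to be methylated on the maternal allele. The Grb10 window belongs to the upstream start at the CpG-richest of the 5 promoters, with 45 CpG and 1 match. Other annotated windows of Snrpn (2, 3 and 4 CpG), an upstream Mest window and a downstream Grb10 window had no match. The Phlda2 window had 26 CpG and no match in these letters. Phlda2 is known to be governed from a distance, by the control region at the Kcnq1ot1 promoter. Promoter windows were found for 36 of the 42 members, and Cdkn1c, H19, Impact, Nap1l4, Peg10 and Sgce had no entry. The hexamer was present in 13 of 53 windows of members (24.5%) and in 11.6% of the 32851 windows of all genes. Starts a few bases apart, as for Mest, count as separate windows, and by gene 12 of the 36 members had a match. Member windows were also richer in CpG, with a median of 14 against 7 over all windows, and the hexamer itself holds a CpG. A match is a description of the sequence and not evidence of binding.

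Of the 42 members, 32 reached a mean of 1 across the libraries and were tested. Of these, 7 rose and 2 fell in Myh9 KO cells, in 6 of the 18 genomic clusters that the members form. The genes that rose were Peg10, Mest and Copg2 on chromosome 6 and H19, Igf2, Phlda2 and Snrpn on chromosome 7, and those that fell were Grb10 and Blcap. "Rose" and "fell" are used only for genes called in the same direction by limma on log2(value + 1) and by a repeat in which random decimals were added to the whole numbers, each at a Benjamini-Hochberg adjusted p under 0.05 over all 11231 tested genes. By this rule 5.13% of all tested genes rose and 5.81% fell, against 21.9% and 6.25% of the tested members. The median log2 fold change was 0.01 over the tested members and 0.00 over all tested genes. Values of the genotypes did not overlap for 21 tested members, 12 higher and 9 lower in Myh9 KO (26.2% and 27.3% of all tested genes). Limma alone called 7 members higher and 3 lower, and random decimals alone called 10 and 5 (7.17% and 7.96%, and 11.1% and 12.1%, of all tested genes). An unadjusted p under 0.05 by limma was reached by 15 of the 32 tested members and by 3734 of all 11231 tested genes. Without WT 1 or WT 2, 2 members rose and 1 fell by both tests. Without Myh9 KO 1 it was 5 and 0, and without Myh9 KO 2 it was 3 and 0.

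**Figure D1:**
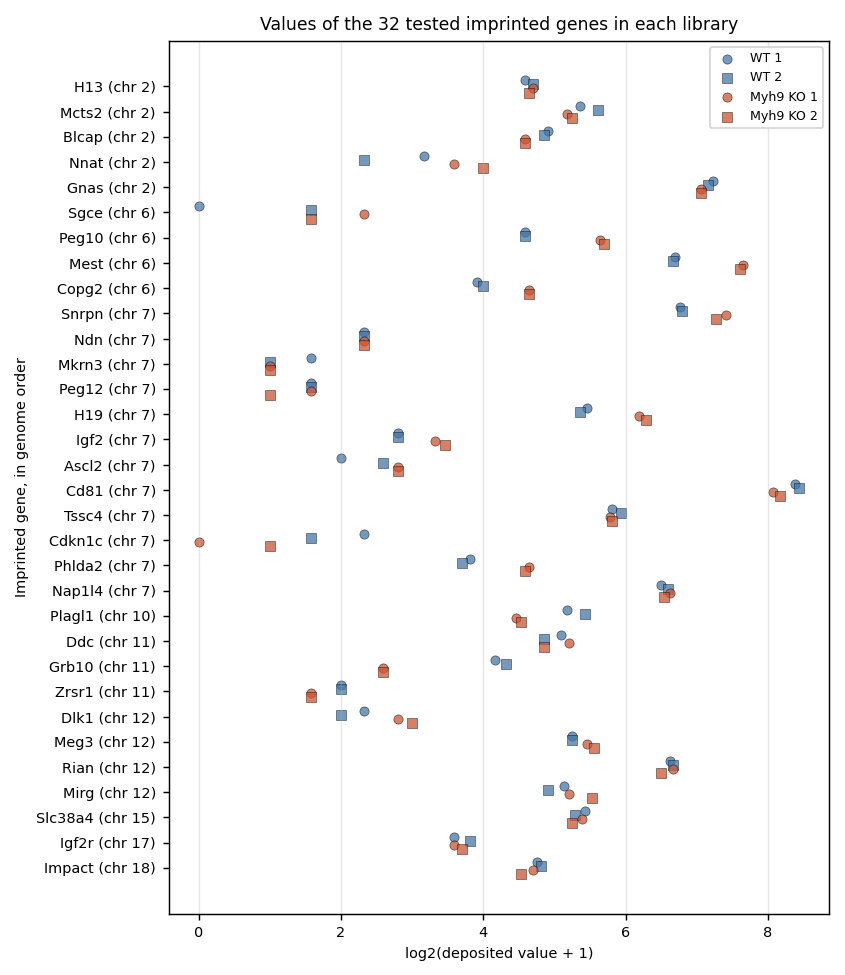
Deposited value of each of the 32 tested imprinted genes in each library, as log2(value + 1) on the horizontal axis, with genes in genome order on the vertical axis; blue points are WT, red points Myh9 KO, circles replicate 1 and squares replicate 2. Mest, at 102 and 100 in WT against 200 and 194 in Myh9 KO, and Grb10, at 17 and 19 and then 5 and 5, separate by genotype, while Rian, at 97, 100, 100 and 89, does not.

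H19 and Igf2 are the best known imprinted neighbours. They share enhancers on distal chromosome 7, with H19 expressed from the maternal and Igf2 from the paternal allele. H19 (ENSMUSG00000000031, chr7:142575529-142578143) codes for a long non-coding RNA that restrains growth. WT 1 and WT 2 gave 43 and 40, and Myh9 KO 1 and Myh9 KO 2 gave 72 and 77. The genotypes did not overlap, and H19 rose by a log2 change of 0.83 (SE 0.06, n = 2 per group, limma adjusted p = 0.0223). Igf2 (ENSMUSG00000048583, chr7:142650766-142666816), the gene of the fetal growth factor IGF2, had a value of 6 in each WT library and of 9 and 10 in Myh9 KO. Both Myh9 KO libraries lay above WT, and Igf2 rose by 0.58 (SE 0.06, adjusted p = 0.0384, and 0.0345 with random decimals). The oppositely imprinted neighbours thus both had higher values in Myh9 KO. Of the exon bases of Igf2, 64.5% are shared with other gene models, mostly a model on the same strand, which makes the low Igf2 value less certain. Igf2r, whose maternal allele codes for the receptor that clears IGF2, stood at 11 and 13 in WT against 11 and 12 in Myh9 KO. Its groups overlapped (log2 change -0.05, 95% confidence interval -0.44 to 0.34). Airn, the non-coding RNA that silences the paternal Igf2r allele, was listed at 0 in every library.

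With 1 library left out, limma no longer called H19 in any of 4 fits (adjusted p 0.0948 to 0.118), while random decimals still did (highest adjusted p = 0.00121). Igf2 was lost by limma without WT 1 or WT 2 (adjusted p = 0.206 and 0.207) and by random decimals without WT 1, WT 2 or Myh9 KO 2 (0.0856, 0.0815 and 0.119).

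The second domain of distal chromosome 7, governed from Kcnq1ot1, holds genes expressed from the maternal allele that limit growth or act in the placenta. Of its tested members only Phlda2 passed both tests. Phlda2 (ENSMUSG00000010760, chr7:143501545-143503150), a pleckstrin-homology protein gene that restrains placental growth, stood at 13 and 12 in WT against 24 and 23 in Myh9 KO. It rose by a log2 change of 0.86 (SE 0.06, adjusted p = 0.018), with both Myh9 KO values well above WT. Cdkn1c, the gene of the cell cycle inhibitor p57, stood at 4 and 2 in WT against 0 and 1 in Myh9 KO. Both Myh9 KO values lay below WT, but at so low a level that the interval ran from -3.35 to 0.44 around a log2 change of -1.45 (adjusted p = 0.207, and 0.0431 with random decimals). Of its exon bases 30.7% overlap an antisense gene model listed at 0 throughout.

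Cd81, a tetraspanin gene, stood at 332 and 346 in WT against 267 and 286 in Myh9 KO, all lower in Myh9 KO (log2 change -0.29, SE 0.05). Limma did not call it (adjusted p = 0.0745), whereas random decimals did (adjusted p = 0.00579). Ascl2, a helix-loop-helix factor needed for trophoblast, stood at 3 and 5 in WT against 6 in each Myh9 KO library (log2 change 0.51, adjusted p = 0.304). For Tssc4 (55 and 60, then 54 and 55), a splicing factor gene, and Nap1l4 (89 and 96, then 97 and 92), a histone chaperone gene, the genotypes overlapped, with intervals of -0.27 to 0.12 and -0.17 to 0.24. Slc22a18, a transporter gene, had a value of 1 in WT 1 and 0 elsewhere, and Kcnq1ot1 was listed at 0 in every library. With 1 library left out limma gave Phlda2 an adjusted p of 0.0634 (without WT 1), 0.0722 (without WT 2), 0.105 (without Myh9 KO 1) and 0.103 (without Myh9 KO 2), while random decimals still called it (highest adjusted p = 0.00654).

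**Figure D2:**
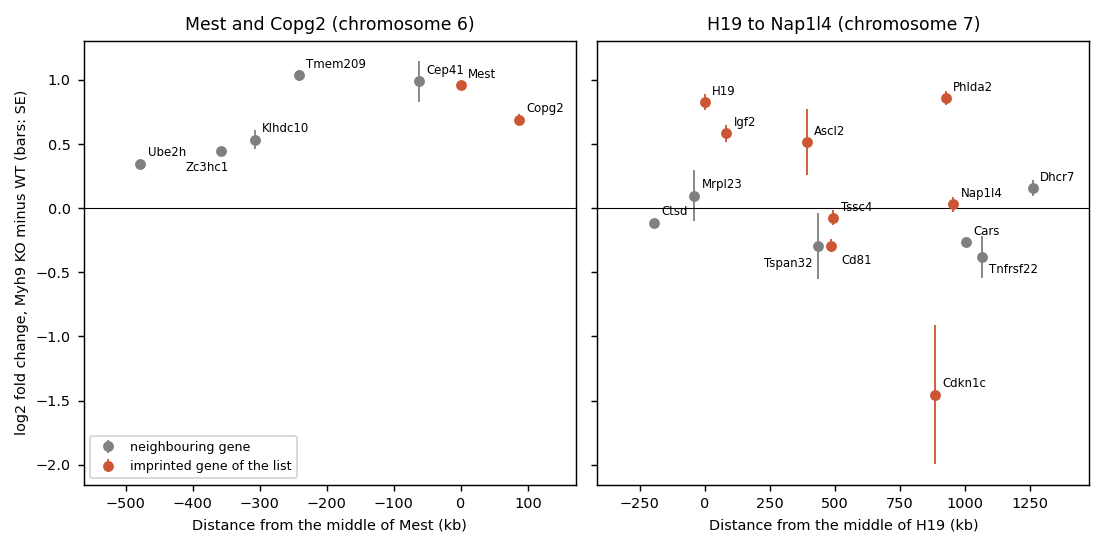
Log2 fold change of value + 1, Myh9 KO minus WT, with its standard error on the vertical axis, against the distance in kb from the middle of Mest (left) or H19 (right), for imprinted genes of the list (red) and other named protein-coding genes within 500 kb with a mean value of at least 3 (grey). Around Mest every gene drawn lies above 0, from 0.35 for Ube2h to 1.03 for Tmem209, while on chromosome 7 H19, Igf2 and Phlda2 lie above neighbours such as Cars at -0.26 and Nap1l4 at 0.03.

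On chromosome 6, 3 of 4 tested members rose. Mest (ENSMUSG00000051855, chr6:30723547-30748465), a paternal-allele gene for a membrane protein of the hydrolase fold that promotes growth, stood at 102 and 100 in WT against 200 and 194 in Myh9 KO. The groups did not overlap, with a log2 change of 0.96 (SE 0.02, adjusted p = 0.00406). Copg2 (ENSMUSG00000025607, chr6:30747554-30896794), a coatomer subunit gene convergent with Mest and expressed mostly from the maternal allele, stood at 14 and 15 in WT against 24 in each Myh9 KO library. It rose by 0.69 (SE 0.04, adjusted p = 0.018). The 3′ parts of Mest and Copg2 overlap on opposite strands over 912 exon bases, 23.1% of Mest and 17.8% of Copg2. The library protocol describes no step that marks strand, so reads there cannot be assigned to either gene with certainty. Peg10 (ENSMUSG00000092035, chr6:4747306-4760517), a paternal-allele gene derived from a retrotransposon and needed for the placenta, had a value of 23 in each WT library and of 49 and 51 in Myh9 KO. It rose by 1.09 (SE 0.03, adjusted p = 0.00406). Sgce, the epsilon-sarcoglycan gene that starts next to Peg10 on the other strand, stood at 0 and 2 in WT against 4 and 2 in Myh9 KO, with overlap. Nap1l5, a paternal-allele gene inside an intron of Herc3, was listed at 0 throughout.

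These rises stood on a chromosome whose genes were higher as a whole. The median log2 fold change was 0.45 over the 555 tested genes of chromosome 6, of which 85.6% lay above 0 and 30.3% rose, against medians between -0.14 and 0.21 on the other autosomes and X. All 9 tested neighbours within 500 kb of these members had a log2 fold change above 0, and Zc3hc1 (97 and 97 to 131 and 134) and Tmem209 (19 and 20 to 42 and 40) rose. Less the median of the other tested genes of the chromosome, the log2 fold change was 0.64 for Peg10, 0.51 for Mest and 0.24 for Copg2. On values centred by chromosome, limma still called Peg10 and Mest (adjusted p = 0.017 and 0.0127) and did not call Copg2 (adjusted p = 0.0993). Random decimals were not run on the centred values, so these are calls by limma alone. Mest was called by both tests with any library left out (limma adjusted p 0.0262 to 0.0472). Peg10 narrowly missed by limma without WT 1 or WT 2 (0.0509 and 0.0518) and Copg2 without Myh9 KO 1 or Myh9 KO 2 (0.11 and 0.115), while random decimals called both in each fit. Away from chromosome 6, 4 of 28 tested members rose and 2 fell (14.3% and 7.14%), and their median log2 fold change was -0.04. Of all tested genes, between 1.68% (chromosome 9) and 12.5% (chromosome 8) rose on the other autosomes and X. Between 1.7% (chromosome 8) and 9.68% (chromosome 12) fell there. On chromosome 7, which holds these 4 members that rose, the shares were 4.79% and 6.86%.

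**Figure D3:**
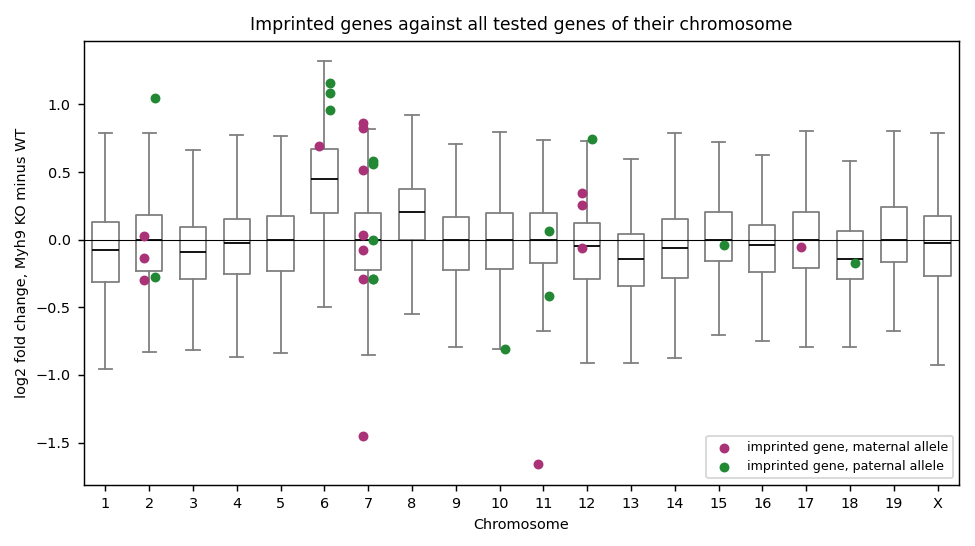
Log2 fold change of value + 1, Myh9 KO minus WT, of all tested genes by chromosome (box: quartiles and median; whiskers reach the farthest gene within 1.5 times the box; outlying genes are not drawn) with the tested imprinted genes as points, coloured by the expressed allele. The chromosome 6 box has its median at 0.45, and Mest (0.96) and Peg10 (1.09) lie above that box.

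Grb10 had the largest log2 change among the 9 members that rose or fell. It codes for an adaptor protein that restrains insulin and IGF receptor signalling and is expressed from the maternal allele outside the nervous system (ENSMUSG00000020176, chr11:11930508-12038683). It stood at 17 and 19 in WT against 5 in each Myh9 KO library. It fell by 1.66 on the log2 scale (SE 0.07, limma adjusted p = 0.0088, and 0.000154 with random decimals). Its neighbour Ddc, the gene of aromatic L-amino acid decarboxylase, stood at 33 and 28 in WT against 36 and 28 in Myh9 KO, with overlap and an interval of -0.58 to 0.70. The other tested neighbours, Fignl1 and Cobl, also overlapped between genotypes, with log2 fold changes of -0.04 and -0.09. Without Myh9 KO 1 or Myh9 KO 2 limma gave Grb10 an adjusted p of 0.0746 and 0.0779 at the same fold, and random decimals called it in each fit (highest adjusted p = 0.00172).

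Plagl1, a paternal-allele gene for a zinc finger factor known to regulate other imprinted genes, was also lower but passed only with random decimals (ENSMUSG00000019817, chr10:13060504-13131694). It stood at 35 and 42 in WT against 21 and 22 in Myh9 KO, with no overlap and a log2 change of -0.81 (SE 0.12, limma adjusted p = 0.0579, and 0.00147 with random decimals). Limma did call it with equal library medians (adjusted p = 0.00795), with quantile normalization (0.049) and after removal of a trend on GC content and length (0.0073). Limma missed it with pseudocounts of 0.5 and 2 (0.0587 and 0.0574), without the low-value filter (0.0619) and with the replicate block (0.116). After chromosome centring limma called Plagl1 (adjusted p = 0.0221). Besides chromosome centring, 5 of 14 alternatives with a test called Plagl1, random decimals among them. With 1 library left out its log2 change ran from -0.93 to -0.68. Of its 7 tested neighbours 0 rose or fell by both tests, while limma alone called 1 higher and 1 lower, random decimals 1 and 1, and 4 had an unadjusted p under 0.05.

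In the region of central chromosome 7 whose human counterpart is affected in Prader-Willi and Angelman syndromes, where the members form 2 clusters, Snrpn was the only tested member that rose; it codes for a splicing ribonucleoprotein and is expressed from the paternal allele (ENSMUSG00000102252, chr7:59982495-60140219). It stood at 108 and 110 in WT against 169 and 153 in Myh9 KO, both above WT (log2 change 0.56, SE 0.06, adjusted p = 0.0416). Of its exon bases 34.1% are shared with other gene models, among them Snurf, which was listed at 0. The other tested paternal-allele members of the region had low values. Ndn, a MAGE family gene, had a value of 4 in all libraries, Mkrn3, a ring finger gene, 2 and 1 in WT against 1 and 1 in Myh9 KO, and Peg12, of the FRAT family, 2 and 2 and then 2 and 1. Magel2, another MAGE family gene, and Ube3a, the maternal-allele ubiquitin ligase gene, were listed at 0 in every library. Without WT 1 or WT 2 limma did not call Snrpn (adjusted p = 0.224 and 0.217), nor did it with quantile normalization (0.0582). After removal of a trend on GC content and length, the log2 fold change was 0.80.

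In the cluster of distal chromosome 12, 0 of 4 tested members rose or fell (0 by limma, 2 higher by random decimals, and 2 at an unadjusted p under 0.05). Meg3, Rian and Mirg are non-coding RNAs of the maternal allele that host small RNAs, and Dlk1 is a paternal-allele ligand related to those of the Notch pathway. Meg3 had values of 37 in each WT library and of 43 and 46 in Myh9 KO (log2 change 0.26, limma adjusted p = 0.0719, and 0.0496 with random decimals). Dlk1 stood at 4 and 3 in WT against 6 and 7 in Myh9 KO (0.74, adjusted p = 0.106, and 0.032 with random decimals). For both genes the Myh9 KO libraries lay above WT without passing both tests. Rian, at 97 and 100 and then 100 and 89, overlapped, and Mirg had values of 34 and 29 and then 36 and 45 (adjusted p = 0.294).

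On chromosome 2 the members lie in 3 clusters, and 1 of 5 fell. Blcap (ENSMUSG00000067787, chr2:157556362-157571274), a small membrane protein gene, stood at 29 and 28 in WT against 23 in each Myh9 KO library and fell by 0.30 on the log2 scale (SE 0.03, adjusted p = 0.0289, and 0.0478 with random decimals). Random decimals lost Blcap with any library left out (adjusted p 0.0878 to 0.229), and limma lost it without Myh9 KO 1 or Myh9 KO 2 (0.134 and 0.142), with equal library medians (0.102), with quantile normalization (0.0714) and after chromosome centring (0.071). Nnat, the paternal-allele neuronatin gene inside an intron of Blcap, stood at 8 and 4 in WT against 11 and 15 in Myh9 KO. Its Myh9 KO values were higher than WT, but the WT libraries differed by so much that the interval ran from -0.39 to 2.49 (limma adjusted p = 0.225, and 0.026 with random decimals). Gnas, the gene of the stimulatory G protein alpha subunit, stood at 149 and 141 in WT against 132 in each Myh9 KO library (log2 change -0.13, adjusted p = 0.136). H13, a signal peptide peptidase gene (23 and 25, then 25 and 24), overlapped between genotypes, and Mcts2, a translation factor retrogene in an intron of H13, had values of 40 and 48 and then 35 and 37 (adjusted p = 0.248).

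The remaining tested members were Zrsr1, Slc38a4 and Impact. Zrsr1, a splicing factor retrogene inside Commd1, had a value of 3 in each WT and 2 in each Myh9 KO library. Limma called this step of a single unit (adjusted p = 0.00406), where equal replicates leave no spread, and random decimals did not (adjusted p = 0.236). Slc38a4, an amino acid transporter gene (42 and 38, then 41 and 37), overlapped between genotypes, with an interval of -0.35 to 0.28. Impact, a regulator of the stress kinase GCN2, had values of 26 and 27 and then 25 and 22 (log2 change -0.17, adjusted p = 0.296).

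The 10 untested members were listed at 0 in all 4 libraries, except Slc22a18, named above. Besides Airn, Kcnq1ot1, Magel2, Nap1l5 and Ube3a they were Zdbf2 on chromosome 1 and the zinc finger genes Peg3 and Zim1 with the ubiquitin peptidase gene Usp29, which form a cluster on proximal chromosome 7. A listed 0 is not proof of absence: Mki67, Rock1 and Rock2, genes that dividing cells use, were also listed at 0 throughout.

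Genes of either expressed allele were among those that rose. Of 19 maternal-allele members 16 were tested, of which 3 rose (H19, Phlda2, Copg2) and 2 fell (Grb10, Blcap), with a median log2 fold change of -0.01. Of 23 paternal-allele members 16 were tested, of which 4 rose (Peg10, Mest, Snrpn, Igf2) and 0 fell by both tests (1 by limma, 1 by random decimals, and 7 in either direction at an unadjusted p under 0.05), with a median of 0.03. The shares that rose were 18.8% and 25%, and those that fell 12.5% and 0%, against 5.13% and 5.81% of all tested genes. Without the members on chromosome 6, 2 of 15 maternal-allele and 2 of 13 paternal-allele members rose (13.3% and 15.4%). The difference between the allele groups was not tested.

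**Figure D4:**
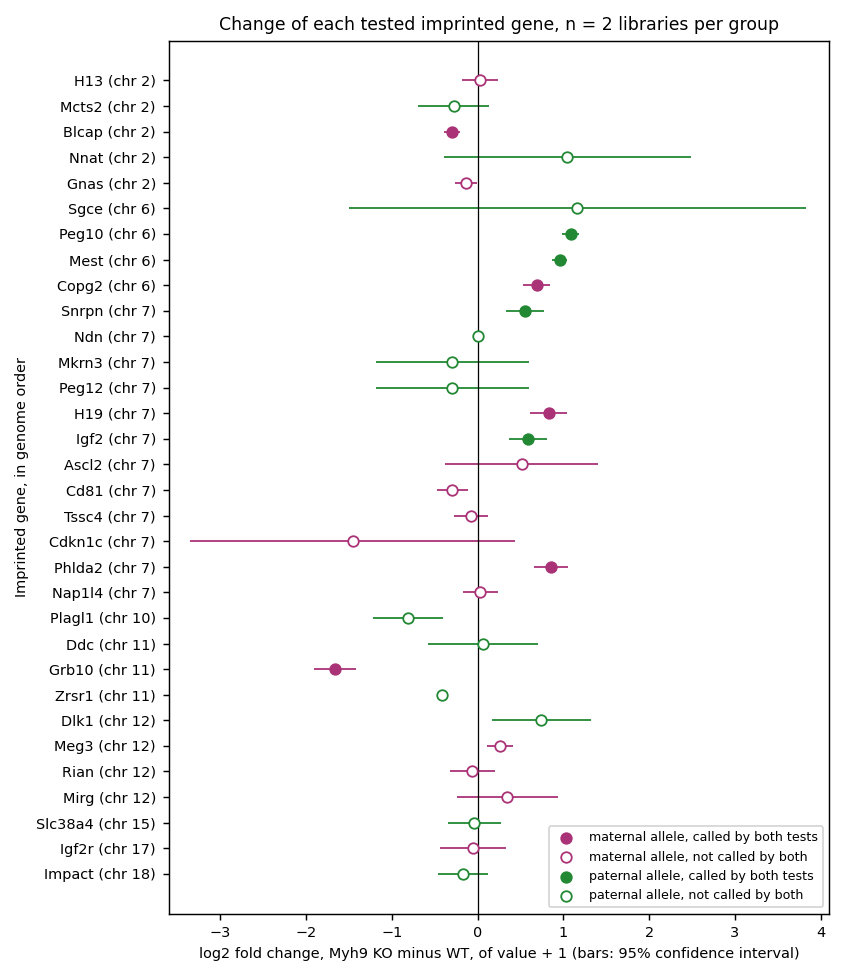
Log2 fold change of value + 1, Myh9 KO minus WT, with its 95% confidence interval on the horizontal axis for each tested imprinted gene in genome order, coloured by the expressed allele; filled points were called by both tests. Filled points of both colours lie above 0, from Snrpn at 0.56 to Peg10 at 1.09, and the lowest is Grb10 at -1.66.

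Of 28 genes for factors that keep or set imprints 24 were tested, of which 1 rose and 1 fell (4.17% each, near the 5.13% and 5.81% of all tested genes). Zfp57 stood at 271 and 266 in WT against 269 and 272 in Myh9 KO (log2 change 0.01, SE 0.02), and Trim28 values of 2912 and 2818 and then 2751 and 2857 (-0.03, SE 0.03). The maintenance methyltransferase gene Dnmt1 had values of 106 and 116 and then 119 and 116 (0.08, SE 0.06). Dnmt3l, the cofactor of de novo methylation in germ cells, rose from 320 and 336 to 618 and 620 (0.91, SE 0.03, adjusted p = 0.00614). Dppa3, whose protein shields maternal imprints in the zygote, fell from 22 and 22 to 8 and 9 (-1.28, SE 0.07, adjusted p = 0.0136), against the direction of its chromosome 6. Tet3 (1 and 1, then 2 and 2) and Kdm1b (3 and 3, then 2 and 2) were called by limma only. Random decimals alone called 3 of the list higher and 4 lower (11.1% and 12.1% of all tested genes). Those it called without limma were Uhrf1 (401 and 427, then 489 and 515) and Ezh2 (30 and 30, then 45 and 39), both higher. Dnmt3b (103 and 111, then 75 and 81), Eed (111 and 121, then 100 and 76) and Hdac1 (278 and 300, then 254 and 256) were lower. Ezh2 and Tet3 lie on chromosome 6. Their log2 fold changes were 0.47 and 0.585, against a median of 0.45 for all tested genes of that chromosome.

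A further list of 49 genes reported as imprinted in mouse, outside the 42, had 48 found by name and 23 tested. Of these, 0 rose by both tests (1 by limma, 0 by random decimals) and 3 fell (3 by limma, 5 by random decimals). In either direction, 6 had an unadjusted p under 0.05 by limma. Those that fell were 13% of the tested list, against 5.81% of all tested genes. Dio3, a thyroid hormone deiodinase gene beyond Mirg on chromosome 12, fell from 9 and 10 to 4 and 4 (log2 change -1.07, SE 0.06, adjusted p = 0.0156). Smoc1, a matrix protein gene also on chromosome 12, fell from 21 and 22 to 10 and 12 (-0.91, SE 0.11, adjusted p = 0.0448). On that chromosome 9.68% of all tested genes fell. The X-linked homeobox gene Rhox5 fell from 62 and 61 to 35 and 38 (-0.74, SE 0.05, adjusted p = 0.0206). Phactr2 (1 and 1, then 2 and 2) was called by limma only. Cmah (8 and 9, then 3 and 2) had the largest change of the list, at -1.45. It was called by random decimals only (limma adjusted p = 0.0514, and 0.00231 with random decimals).

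Neighbours within 500 kb gave a local background. Outside chromosome 6, 76 other named protein-coding genes were tested, of which 3 rose and 2 fell (3.95% and 2.63%), with a median log2 fold change of -0.13. Those that rose were Id1, a target of BMP signalling near H13 (95 and 101 to 306 and 361), and Ctsz and Nelfcd near Gnas, and those that fell were Cars near Nap1l4 and Sod2 near Igf2r. Of all 85 neighbours, 9 are on the list of other imprinted genes.

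The targeted gene Myh9 stood at 83 and 100 in WT against 9 in each Myh9 KO library. Markers of mouse ES cells were present in every library, with values of Pou5f1 between 3045 and 3189. Of the 8, 0 rose and 2 (Sox2 and Dppa5a) fell (25%, against 5.81% of all tested genes). Random decimals alone called 2 of the 8 higher and 3 lower (11.1% and 12.1% of all tested genes). Of 8 feeder fibroblast markers, Col1a1, Col1a2, Col3a1, Dcn, Lum and Postn were at 0 throughout, and the list summed to 4 and 4 in WT against 5 and 7 in Myh9 KO. The 8 trophoblast markers, which matter here because Phlda2, Ascl2, Peg10, H19 and Igf2 are used in the placenta, summed to 32 and 33 in WT against 45 and 43 in Myh9 KO. Of 5 tested, Eomes (6 and 6 to 11 and 11) and Esx1 (4 and 4 to 7 and 7) rose (40%, against 5.13% of all tested genes). The WT values of Esx1 lie where values move in steps of a single unit. Cdx2 (6 and 6, then 7 and 7) was called by limma only. Gata3 (2 and 1, then 3 and 3) and Tfap2c (14 and 16, then 17 and 15) were called by neither test. Elf5, Hand1 and Krt7 were at 0 throughout. Of 7 primitive endoderm markers, Gata6, Sox7, Foxa2 and Pdgfra were at 0, and the list summed to 2 and 4 in WT against 8 and 8 in Myh9 KO. Of 6 neural markers, Pax6, Map2 and Neurod1 were at 0, and the list summed to 106 and 108 in WT against 94 and 90 in Myh9 KO. Most of these sums came from Tubb3 alone, at 100 and 101 in WT against 89 and 85 in Myh9 KO. Limma did not call Tubb3 (adjusted p = 0.0618), whereas random decimals did (adjusted p = 0.0429). The list of 2-cell-like markers, 8 genes used by a rare subset of cultured ES cells, summed to 114 and 136 in WT against 2 and 1 in Myh9 KO. All 8 fell (100%, against 5.81% of all tested genes), with a median log2 fold change of -3.75. Usp17le, Zscan4b, Tcstv1 and Zscan4c had the smallest p by limma and were at 0 in both Myh9 KO libraries. In bulk RNA, fewer cells of a type and less RNA per cell cannot be told apart, and the part of these differences in the imprinted genes was not tested. Genes of low GC content had lower log2 fold changes, with a median log2 fold change of -0.15 for genes of 31.0% to 45.0% GC and 0.11 for those of 56.1% to 76.3%.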

How the data were processed

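Libraries were made from TRIzol-extracted RNA after oligo-dT selection, with random-hexamer priming and no step that marks strand, per the labels' protocols. Bowtie2 2.2.5, RSEM 1.3.0 and bcl2fastq are named without a role, with builds mm10 and hg38, per the submitters' processing notes. The values the authors deposited were handled as a score: whole numbers with nearly equal totals, as per-million values without decimals would give, so no count test was used and depth is unknown. Of the identifiers 50376 were found in GENCODE vM21 (mm10), 92.91% of them at the same coordinates.

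Genes whose mean value reached 1 were fitted with limma 3.58.1 (R 4.3.3, intensity trend) on log2(value + 1), Myh9 KO against WT, which understates changes of low values. Because equal whole numbers leave no spread, the fit was repeated with uniform random decimals from 0 to 1 (median adjusted p over 25 draws). In simulated data with few changed genes, most calls of the first fit alone were unchanged genes, so both were required. Far more genes were called in the deposited values than were changed in the simulation. Its share of wrong calls therefore does not carry over to them. Alternatives were pseudocounts, filters, scalings, the trend, chromosome centring, GC content and length, the replicate block and leaving out each library. All members were named, with up to 4 called genes of each list and the imprint factors called by random decimals only. Some further genes of the lists were named as well. Members within 2 Mb formed a cluster. The members and lists were chosen with earlier results of these data known. Exon overlaps came from GENCODE and promoters from RefSeq. A gene that the neighbour rule also covers is counted but not named here.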

Additional observations from a re-analysis of the deposited data

How the results depend on the processing

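The main count was 7 members higher and 3 lower by limma. With random decimals it was 10 and 5, and after removal of a GC and length trend 7 and 5. The other scalings, filters, pseudocounts and variance models gave 6 or 7 higher and 3 or 4 lower. With each library left out in turn, limma called 3 to 5 members higher and 1 to 4 lower, and both tests together called 2 to 5 higher and 0 to 1 lower; these fits have fewer samples. None of the 9 members called by both tests changed sign under any of 15 alternatives. The genotypes did not overlap for these members, so pseudocounts, filters, the replicate block, random decimals and left-out libraries could not reverse a sign. Only the scalings, chromosome centring and the GC and length trend could have done so. The replicate numbers are shared by the genotypes, but with only these libraries they share a number and no stated origin (correlation of deviations 0.0407). With the replicate block, limma called 0 members higher and 0 lower, both tests together 0 and 0, and limma 10 and 44 over all genes. Over all genes 805 were higher and 894 lower by limma (47.4% higher), and 1164 and 819 with equal library medians (58.7% higher). Values below about 5 move in steps of a single unit, so changes of Sgce, Cdkn1c, Mkrn3, Peg12, Zrsr1, Dlk1 and Ascl2 were not resolved at this precision.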
